A study of Mus musculus with 8 samples.

Results

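Mitochondrial genome transcripts are the RNAs copied from the circular chromosome inside mitochondria. They were taken as the rows whose gene identifier maps to a symbol starting with mt-, which gave 37 of the 54446 genes counted. The 37 genes are 13 mRNAs, 2 ribosomal RNAs (rRNAs) and 22 transfer RNAs (tRNAs). Of these, 12 mRNAs, both rRNAs and 14 tRNAs are annotated on the plus strand of chromosome M, and mt-Nd6 and 8 tRNAs on the minus strand.

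The study sequenced nuclear RNA of mouse embryonic stem cells, strain C57BL/6, to compare loss of METTL14 with loss of METTL3, the paired proteins of the complex that writes N6-methyladenosine on RNA. Its 4 groups of 2 libraries each are Mettl14 control, Mettl14 cKO (conditional knockout), Mettl3 control and Mettl3 cKO. All 4 groups grew in serum with LIF, the GSK3 inhibitor CHIR99021 and the MEK inhibitor PD0325901, and RNA of the separated nuclear fraction was depleted of ribosomal RNA before library preparation. The sources used here give neither the alleles, the exons deleted and the Cre driver nor the time after deletion and whether a line is 1 clone. The labels do not say whether the 2 libraries of each group come from separate cultures. The p-values below therefore measure only spread between libraries, and this may be technical.

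The mitochondrial chromosome is read from both strands into long precursor RNAs that carry many genes each. tRNAs sit between most of the mRNAs and rRNAs, and enzymes cut them out at both ends, which frees the pieces between them. The mRNAs encode subunits of the respiratory chain and ATP synthase, the rRNAs form the core of the mitochondrial ribosome, and the tRNAs serve translation inside the organelle. All of these RNAs are made outside the nucleus, so their counts in a nuclear fraction also bear on how much organelle RNA the fraction held.

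Library totals ran from 17235889 to 20086128 counts. Levels are given as CPM, counts scaled to the size of each library, after TMM scaling, a method that sets the libraries on a common footing over most genes. Mettl14 RNA was at 58.3 and 55.0 CPM in the Mettl14 control, 27.8 and 30.2 in the Mettl14 cKO, and 26.7 to 30.1 in the 4 Mettl3 libraries. Mettl3 RNA was at 37.9 and 36.1 CPM in the Mettl3 control, 19.8 and 18.6 in the Mettl3 cKO, and 40.2 to 44.4 in the 4 Mettl14 libraries. Reads outside the deleted exons would still be counted, so these levels are a limited check of the labels. The summed level of 8 markers of undifferentiated stem cells was 2484 to 2489 CPM in the Mettl14 control, 1744 to 1748 in the Mettl14 cKO, 884 to 889 in the Mettl3 control and 829 in both Mettl3 cKO libraries. The summed level of 8 fibroblast markers was 587 to 592, 1230 to 1234, 5326 to 5508 and 6496 to 6550 CPM in the same order, so in the Mettl3 libraries it was above that of the stem cell markers. No marker of either list was at 0 in all libraries. In bulk RNA, fewer cells of a type and less RNA per cell cannot be told apart.

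The tRNAs that the results turn on are shown first, because the tRNA class moved against the rRNA class and mt-Tf, mt-Tv, mt-Tl1 and mt-Tm lie next to rRNAs or an mRNA that fell. Sequences are from the GENCODE M21 transcripts (mm10), 5′ to 3′ in DNA letters, and the capitals mark the anticodon, the triplet that reads the codon. mt-Tf (phenylalanine, chrM:1-68, plus strand) and mt-Tv (valine, chrM:1025-1093, plus) lie on either side of mt-Rnr1 (chrM:70-1024). mt-Tl1 (leucine, chrM:2676-2750, plus) follows mt-Rnr2 (chrM:1094-2675). mt-Tm (methionine, chrM:3845-3913, plus) lies directly before mt-Nd2. mt-Ty (tyrosine, chrM:5260-5326, minus) and mt-Tp (proline, chrM:15356-15422, minus) are read from the other strand.
mt-Tf: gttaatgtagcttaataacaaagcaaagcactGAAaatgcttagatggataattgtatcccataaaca
mt-Tv: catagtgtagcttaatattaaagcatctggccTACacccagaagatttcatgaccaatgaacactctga
mt-Tl1: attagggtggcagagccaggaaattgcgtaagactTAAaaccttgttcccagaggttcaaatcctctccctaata
mt-Tm: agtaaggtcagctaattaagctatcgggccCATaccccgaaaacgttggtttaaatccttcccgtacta
mt-Ty: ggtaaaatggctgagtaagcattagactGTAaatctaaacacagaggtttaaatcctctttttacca
mt-Tp: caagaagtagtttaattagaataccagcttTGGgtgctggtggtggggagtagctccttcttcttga

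Loss of Mettl14 came with less mitochondrial rRNA and mRNA and more mitochondrial tRNA in the nuclear fraction. All members together made up 2.99% and 3.00% of the counts in the Mettl14 control libraries and 1.43% in both Mettl14 cKO libraries. The share was 1.06% and 1.12% in the Mettl3 control and 1.26% and 1.33% in the Mettl3 cKO. The Mettl14 control thus stood above the other 6 libraries, and no 2 groups overlapped.

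The 3 classes did not move alike. Summed rRNA was 25460 ± 132 CPM (SD, n = 2) in the Mettl14 control and 7945 ± 16.8 in the Mettl14 cKO, which is 31.2% of the control. Summed mRNA was 10270 ± 76.8 CPM in the control and 6641 ± 14.8 in the knockout, 64.7% of the control. Without mt-Co1, the mRNA sum was 47.0% of the control. Summed tRNA was 103 ± 16.6 CPM in the control and 216 ± 9.42 in the knockout, 210% of the control. As a share of all mitochondrial counts, rRNA took 71.3% and 70.8% in the Mettl14 control, 53.7% and 53.6% in the Mettl14 cKO, 43.8% and 43.5% in the Mettl3 control, and 40.3% and 39.4% in the Mettl3 cKO. These sums have no test of their own: with 2 libraries against 2, an exact two-sided permutation test cannot go below p = 0.33.

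**Figure D1:**
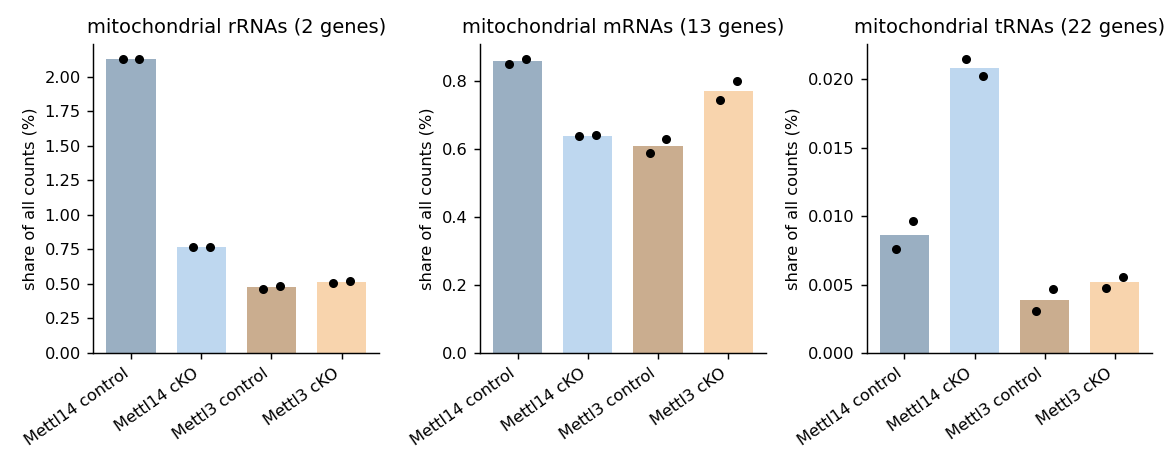
Share of all counts (%) that fell on mitochondrial rRNAs, mRNAs and tRNAs in each group, with bars for the mean of 2 libraries and points for the libraries. rRNA is at 2.13% in both Mettl14 control libraries and at 0.463% to 0.766% in the other 6, whereas tRNA is highest in the Mettl14 cKO, at 0.0215% and 0.0202%.

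Gene by gene, 30 of the 37 members passed the filter on low counts and were tested with edgeR's quasi-likelihood test over all 21782 genes kept. A low tRNA can pass this filter through the group in which it is high, so the counts of calls below are descriptions of the members tested. In the Mettl14 cKO against its control, 14 of the 30 were higher and 8 lower at an adjusted p under 0.05 (Benjamini-Hochberg), beside 40.4% of all genes called, 18.0% higher and 22.4% lower. Both rRNAs fell. Of the 10 mRNAs tested, 6 fell, 1 rose and 3 did not pass. Of the 18 tRNAs tested, 13 rose, 0 fell and 5 did not pass, and their median log2 fold change was 1.17 beside 0.03 for all genes. In 26 of the 30 members tested the groups did not overlap, beside 68.1% of all genes.

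As a class the rRNAs fell furthest, and mt-Rnr1 fell more than any other member tested. mt-Rnr1, the RNA of the small subunit of the mitochondrial ribosome (955 bases), was at 10314 and 10327 CPM in the Mettl14 control, 1843 and 1839 in the Mettl14 cKO, 702 and 766 in the Mettl3 control, and 852 and 881 in the Mettl3 cKO. Its level in the Mettl14 cKO was 17.8% of the control, a log2 fold change of -2.49 ± 0.03 (SE) with adjusted p = 4.8e-36 (edgeR). mt-Rnr2, the RNA of the large subunit (1582 bases), was at 15239 and 15040 CPM in the Mettl14 control, 6114 and 6094 in the Mettl14 cKO, 3372 and 3489 in the Mettl3 control, and 3845 and 3973 in the Mettl3 cKO. Its log2 fold change was -1.31 ± 0.02, with adjusted p = 1.8e-99.

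These neighbours on 1 precursor did not keep their ratio. Counts per base of mt-Rnr1 over those of mt-Rnr2 came to 1.12 and 1.14 in the Mettl14 control and 0.499 and 0.50 in the Mettl14 cKO. The ratio was 0.345 and 0.364 in the Mettl3 control and 0.367 and 0.368 in the Mettl3 cKO. It does not depend on how the libraries are scaled.

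Ribosomal RNA was depleted before sequencing, and how completely this worked in each library is not given in the sources used here. Within each knockout contrast, other rRNA moved in the same direction as the mitochondrial rRNAs, but the order of the 4 groups differed. Mitochondrial rRNA was lowest in the Mettl3 control, and the nuclear-encoded class in the Mettl14 cKO. The 354 nuclear-encoded genes annotated as rRNA summed to 473 ± 43.3 CPM in the Mettl14 control, 97.4 ± 1.29 in the Mettl14 cKO, 268 ± 39.1 in the Mettl3 control and 390 ± 10.7 in the Mettl3 cKO. Gm42418, a row related to cytosolic rRNA that overlaps an annotated rRNA gene on the opposite strand and was chosen after its values were seen, was at 28142 ± 1534, 4989 ± 19.3, 4769 ± 121 and 7403 ± 296 CPM. In the Mettl14 cKO this row was at 17.7% of its control, mt-Rnr1 at 17.8% and mt-Rnr2 at 40.3%. As the row was chosen on its values, its nearness to mt-Rnr1 is no test. Whether depletion differed between the libraries was not tested.

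Of the 7 mRNAs for subunits of complex I, the NADH dehydrogenase that passes electrons into the respiratory chain, 4 fell to around the same share of the Mettl14 control. mt-Nd1 (chrM:2751-3707), which follows mt-Tl1, was at 2796 and 2844 CPM in the control and 1286 and 1296 in the knockout, a log2 fold change of -1.13 ± 0.02 (adjusted p = 2.2e-63). mt-Nd2 (chrM:3914-4951) was at 638 and 659 CPM in the control and 307 and 302 in the knockout (-1.09 ± 0.03). mt-Nd5 (chrM:11742-13565) was at 1612 and 1626 CPM against 760 and 725 (-1.13 ± 0.02). For all 3, the 2 libraries of each group lay far closer to each other than to the other group.

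mt-Nd4 (chrM:10167-11544), also of complex I, was at 339 and 337 CPM in the Mettl14 control and 168 and 177 in the knockout (-0.97 ± 0.03, adjusted p = 1.4e-57). mt-Cytb (chrM:14145-15288), the only subunit of complex III made in the organelle, fell further. It was at 1653 and 1635 CPM in the control and 595 and 600 in the knockout, a log2 fold change of -1.46 ± 0.03 (adjusted p = 1.9e-47), or 36.3% of the control.

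mt-Co1 and mt-Nd6 did not follow. mt-Co1 (chrM:5328-6872), the catalytic subunit of cytochrome c oxidase, was at 2915 and 2944 CPM in the Mettl14 control and 3164 and 3222 in the Mettl14 cKO. The groups did not overlap, but the log2 fold change of 0.12 ± 0.06 did not pass the test (adjusted p = 0.162). It passed in 10 of the 17 alternative analyses, as a higher level in each, with log2 fold changes of 0.10 to 0.33. mt-Nd6 (chrM:13552-14070), the only mRNA of the minus strand and a complex I subunit, was at 253 and 268 CPM in the control and 341 and 322 in the knockout. This rise of 0.35 ± 0.05 in log2 passed (adjusted p = 3.6e-05), whereas its neighbours on the plus strand, mt-Nd5 and mt-Cytb, fell. Library preparation used a stranded kit, but the strand setting of the counting is not given in the sources used here. If counting ignored strand, reads of mt-Nd6 or a minus-strand tRNA could not be told apart from the opposite precursor.

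Ratios within a library show the same division. Counts per base of mt-Co1 over mt-Cytb were 1.31 and 1.33 in the Mettl14 control and 3.94 and 3.97 in the Mettl14 cKO, with 3.41 to 3.59 in the 4 Mettl3 libraries. Counts per base of mt-Nd6 over mt-Cytb were 0.337 and 0.361 in the Mettl14 control and 1.26 and 1.18 in the Mettl14 cKO. In the Mettl3 control the latter ratio was 0.536 and 0.491, and in the Mettl3 cKO 0.451 and 0.367. The Mettl14 control was thus below the other 6 libraries for the first ratio, and the Mettl14 cKO above the other 6 for the second.

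**Figure D2:**
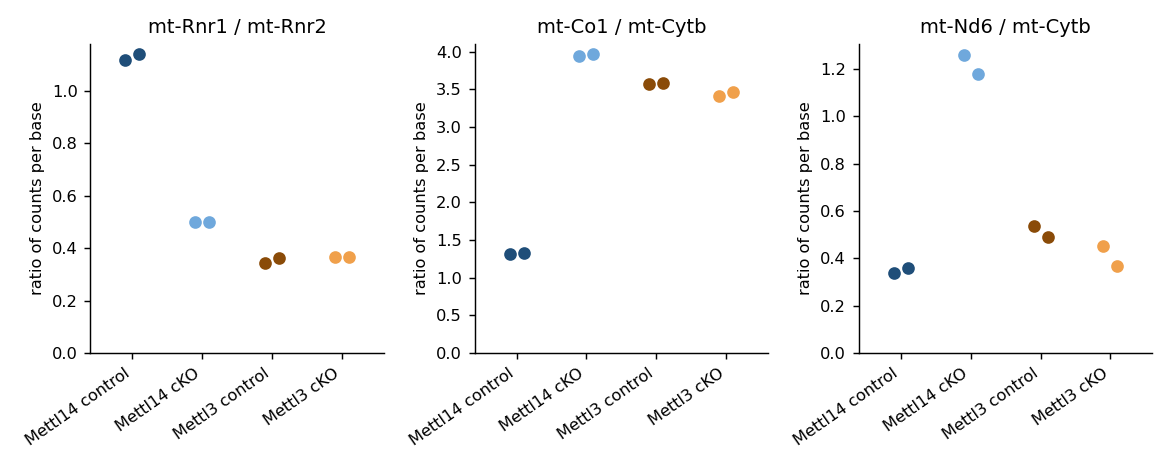
Ratios of counts per base between pairs of mitochondrial genes in each of the 8 libraries, on axes that start at 0. mt-Rnr1 over mt-Rnr2 is 1.12 and 1.14 in the Mettl14 control and 0.345 to 0.50 elsewhere, mt-Co1 over mt-Cytb is lowest in the Mettl14 control at 1.31 and 1.33, and mt-Nd6 over mt-Cytb is highest in the Mettl14 cKO at 1.26 and 1.18.

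The other 6 mRNAs were rare in every library. mt-Co2, a cytochrome c oxidase subunit, was at 5.82 and 7.16 CPM in the Mettl14 control and 4.69 and 4.24 in the Mettl14 cKO, with 1.23 to 2.44 in the Mettl3 libraries. Its log2 fold change of -0.54 ± 0.19 passed (adjusted p = 0.0178) but not without Mettl14 control replicate 2 (adjusted p = 0.264), without Mettl14 cKO replicate 2 (0.129), with DESeq2 (0.122) or with library totals in place of TMM (0.158). mt-Atp6 and mt-Co3, subunits of ATP synthase and of cytochrome c oxidase, did not pass. mt-Atp6 was at 1.22 and 1.26 CPM in the Mettl14 control and 1.23 and 0.982 in the knockout, and mt-Co3 at 1.41 and 2.51 against 2.01 and 2.17, so the groups overlapped for both.

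mt-Atp8, mt-Nd3 and mt-Nd4l, subunits of ATP synthase and of complex I, were too low to test. mt-Atp8 had 4 and 12 counts in the Mettl14 control, 5 and 8 in the Mettl14 cKO, 3 and 4 in the Mettl3 control, and 0 and 2 in the Mettl3 cKO. mt-Nd3 had 1 to 4 counts and mt-Nd4l 0 to 2 counts in each library. A count of 0 allows up to 3 counts, counting error only.

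A gap in abundance along the chromosome goes with copies of it in the nuclear genome. Per kilobase, the Mettl14 control means were 2947 CPM for mt-Nd1, 1896 for mt-Co1, 1437 for mt-Cytb, 888 for mt-Nd5, 624 for mt-Nd2, 502 for mt-Nd6 and 245 for mt-Nd4. They were 9.49 for mt-Co2, 2.50 for mt-Co3, 2.47 for mt-Atp8, 1.81 for mt-Atp6, 0.546 for mt-Nd3 and 0.213 for mt-Nd4l. Pseudogenes annotated side by side on the minus strand of chromosome 1 (mm10, chr1:24611535-24616197) match this stretch of the mitochondrial chromosome. At 99% identity or more, such copies covered 99.6% of mt-Co2 (Gm28661), 99.6% of mt-Atp6 (Gm10925), 99.9% of mt-Co3 (Gm28437), 99.1% of mt-Nd3 (Gm28438) and 99.0% of mt-Nd4l (Gm10222). They covered 63.6% of mt-Nd4, 31.3% of mt-Co1 and 21.1% of mt-Atp8, and 0.0% of mt-Nd1, mt-Nd2, mt-Nd5, mt-Nd6, mt-Cytb and both rRNAs. mt-Atp8 is thus rare with a small covered share, but the bases between Gm10925 and Gm28661 are in no transcript searched and were not analysed here. At 95% identity, copies also covered all of mt-Co1, 52.3% of mt-Nd5 and 49.1% of mt-Nd2, which were not rare.

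Across the aligned bases, 4 of the 5 mRNAs covered almost whole had 0 differences from their copy: mt-Co2 over 681 bases, mt-Atp6 over 678, mt-Co3 over 783 and mt-Nd4l over 294. mt-Nd3 differed from Gm28438 by 1 of 345 bases, T3C, counted from the first base of mt-Nd3 with its base written first. The opening 63 bases of both are shown because this letter, in capitals, is all that parts them.
mt-Nd3: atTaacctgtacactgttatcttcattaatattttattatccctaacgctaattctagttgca
Gm28438: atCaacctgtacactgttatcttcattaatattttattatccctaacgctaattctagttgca
How reads that map to more than 1 place were treated is not given in the sources used here. A read from these stretches fits the mitochondrial gene and the copy alike, so the levels of mt-Co2, mt-Atp6, mt-Co3, mt-Nd3 and mt-Nd4l, and in part those of mt-Nd4, mt-Co1 and mt-Atp8, are uncertain. The part that shared sequence has in the low levels was not tested. The copies themselves had few counts: Gm28438 had 6 to 70 per library, Gm28437 15 to 30 and Gm10925 11 to 115. Of 8 copies listed, 5 were tested, and 0 passed in either knockout, beside 40.4% of all genes called for Mettl14 and 20.9% for Mettl3. Such low counts varied within a group, as for Gm10925 with 30 and 115 in the Mettl14 control. The lack of calls therefore does not show that the copies were unchanged. Between the controls 3 of the 5 were called, all higher in the Mettl14 control, beside 67.8% of all genes.

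**Figure D3:**
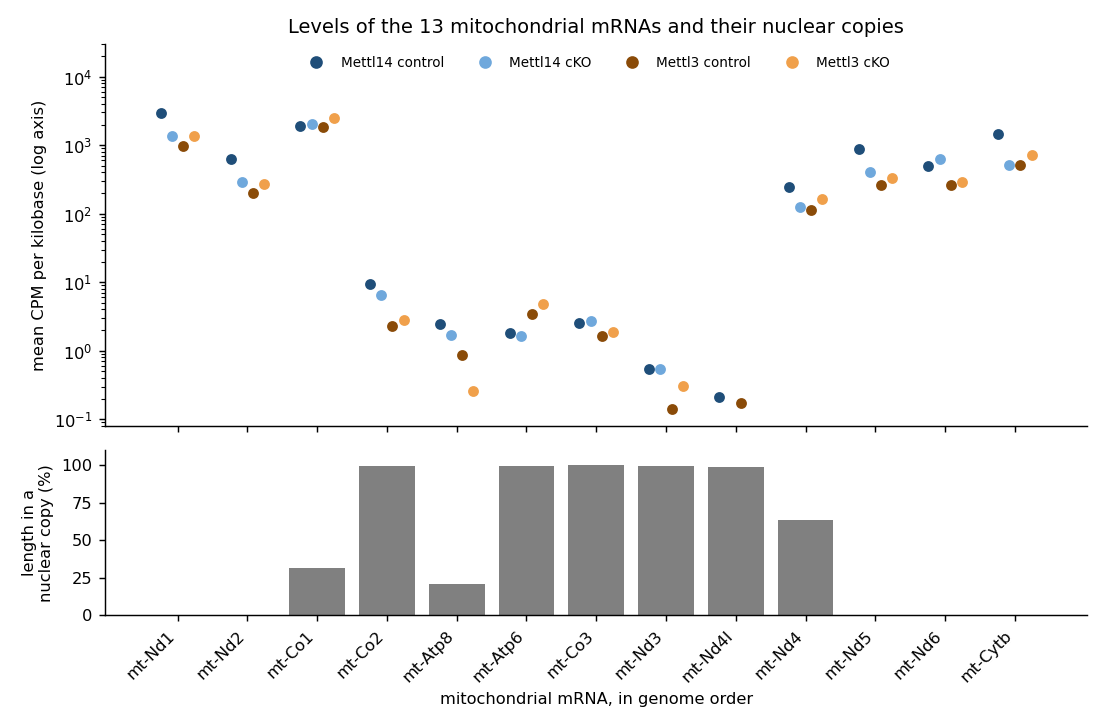
Mean level of the 13 mitochondrial mRNAs in each group (CPM per kilobase, log axis, groups at 0 not drawn) in chromosome order, with the share of each gene's length (%) that a nuclear copy of at least 99% identity covers. The 5 mRNAs covered over 99.0% or more of their length all lie below 10 CPM per kilobase, as does mt-Atp8, at 21.1% covered.

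The tRNAs rose in the Mettl14 cKO on both strands. Of the plus-strand tRNAs tested, 7 of 12 passed, and of the minus-strand ones 6 of 6. Their counts were low, from 0 to 1020 per library, and gene counts do not separate a mature tRNA from its precursor. mt-Tv, which lies between the rRNAs, was at 9.02 and 14.0 CPM in the Mettl14 control and 51.7 and 48.2 in the Mettl14 cKO, 4.33-fold higher (log2 2.11 ± 0.34, adjusted p = 0.00817). Its adjusted p was 0.0739 without Mettl14 control replicate 1, 0.0692 without Mettl14 cKO replicate 1 and 0.0644 without Mettl14 cKO replicate 2. Counts per base of mt-Tv over mt-Rnr1 went from 0.0121 and 0.0188 in the control to 0.388 and 0.362 in the knockout. mt-Tv adjoins both rRNAs without a gap, and how reads that span neighbouring genes were counted was not examined here. The ratio is therefore one of counts and not of molecules. mt-Tf, at the start of the same precursor, was at 13.6 and 22.5 CPM in the control and 42.3 and 37.0 in the knockout. The groups did not overlap, but its log2 fold change of 1.13 ± 0.32 did not pass (adjusted p = 0.0518), and it passed in 7 of the 17 alternatives.

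mt-Tm was at 4.03 and 6.03 CPM in the Mettl14 control and 15.9 and 16.6 in the Mettl14 cKO (log2 1.69 ± 0.16, adjusted p = 3.9e-17). mt-Nd2, which follows it without a gap, fell by 1.09 on the log2 scale. mt-Ty was at 4.35 and 2.32 CPM in the control and 7.65 and 8.06 in the knockout (log2 1.24 ± 0.18). mt-Tp, the most abundant tRNA of the control, rose less. It was at 32.1 and 40.6 CPM in the control and 51.0 and 52.7 in the knockout (log2 0.51 ± 0.07, adjusted p = 1.8e-09).

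In the rest of the 13, the tryptophan tRNA mt-Tw was at 12.2 and 11.8 CPM against 19.3 and 15.8 (log2 0.54 ± 0.12). The alanine tRNA mt-Ta was at 3.20 and 4.33 CPM against 6.70 and 5.99 (0.75 ± 0.21). The glutamine tRNA mt-Tq was at 2.56 and 2.82 CPM against 6.03 and 4.91 (1.02 ± 0.24), and mt-Tl1 at 2.43 and 2.01 against 5.75 and 4.55 (1.21 ± 0.29). In each of these the lower knockout library was above the higher control library.

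The last 5 were below 3 CPM. The histidine tRNA mt-Th was at 0.640 and 0.879 CPM in the Mettl14 control and 2.73 and 2.43 in the knockout. The glutamate tRNA mt-Te was at 0.576 and 0.565 against 1.90 and 2.17, and the threonine tRNA mt-Tt at 0.576 and 0.439 against 1.84 and 1.55. The lysine tRNA mt-Tk was at 0.768 and 0.753 CPM against 1.79 and 1.76, and the serine tRNA mt-Ts1 at 0.128 and 0.565 against 1.23 and 0.827. Their log2 fold changes were 1.21 to 1.82, with none of the groups overlapping.

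Leaving out 1 library ended some of these calls. mt-Tk did not pass without any 1 of the 4 Mettl14 libraries (adjusted p = 0.0818 to 0.0895). mt-Ts1 did not pass without Mettl14 control replicate 1 (adjusted p = 0.439), Mettl14 cKO replicate 1 (0.339) or Mettl14 cKO replicate 2 (0.0875), and mt-Ta not without Mettl14 control replicate 1 (0.106). With DESeq2, mt-Tl1 (adjusted p = 0.366) and mt-Ta (0.0537) did not pass. The 8 tRNAs mt-Tq, mt-Tm, mt-Tw, mt-Ty, mt-Th, mt-Te, mt-Tt and mt-Tp passed in every alternative that gave them an adjusted p. Outside the Mettl14 cKO, mt-Tt and mt-Ts1 had fewer than 10 counts in every library. They thus passed the filter only through the group in which they were high, and their calls are descriptions. The 5 tRNAs tested that did not pass were mt-Tf, mt-Ti, mt-Tg, mt-Tr and mt-Tl2, of which mt-Tl2 alone had a fold change below 0 (log2 -0.12 ± 0.57). mt-Tn, mt-Tc, mt-Td and mt-Ts2, for asparagine, cysteine, aspartate and serine, had at most 12 counts in a library and were not tested.

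**Figure D4:**
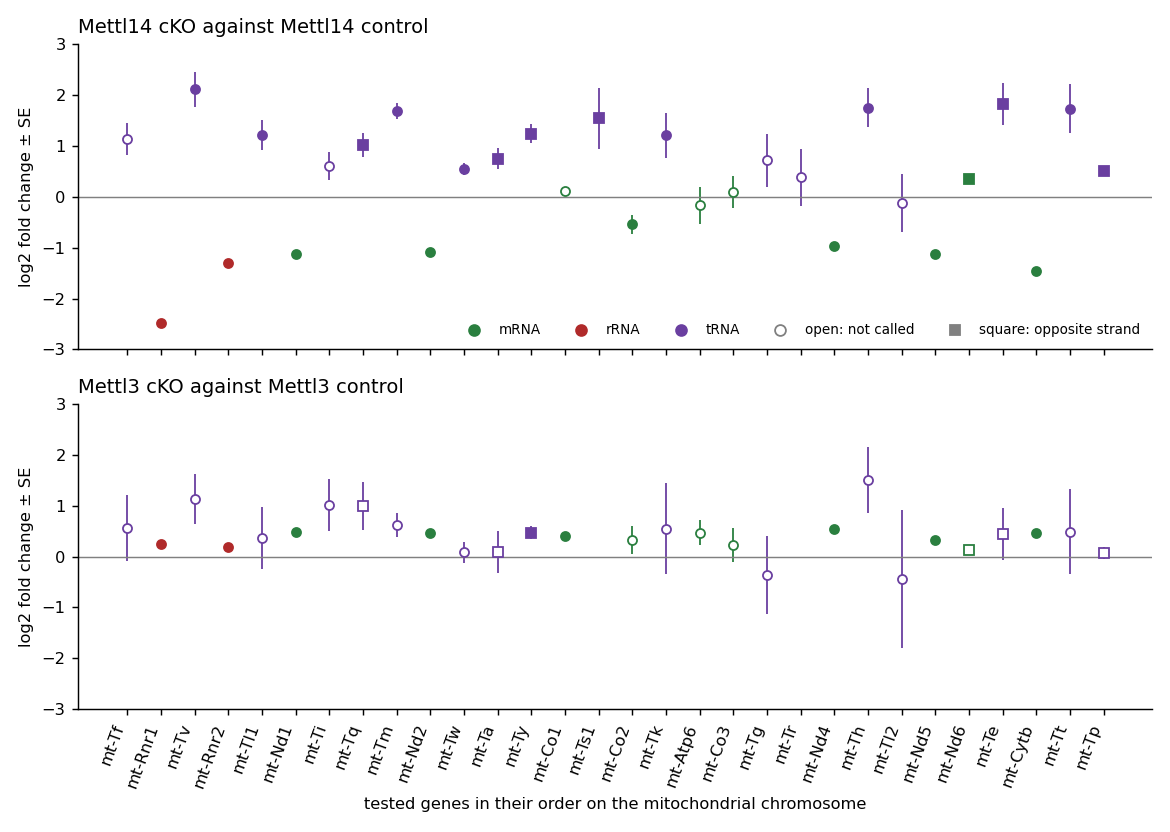
log2 fold change ± SE of the tested mitochondrial genes in chromosome order, for the Mettl14 and the Mettl3 knockout against their own controls, with open symbols for genes that did not pass and squares for the minus strand. Genes with a group at 0 counts are not drawn. In the Mettl14 panel mt-Rnr1 is lowest, at -2.49, while mt-Tv between the rRNAs is at 2.11.

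The Mettl3 cKO showed small rises. Against its control, 10 of the 30 members tested were higher and 0 lower, beside 20.9% of all genes called, 15.1% higher and 5.78% lower. Summed mRNA was 5346 ± 207 CPM in the Mettl3 control and 7163 ± 365 in the Mettl3 cKO (134% of the control), summed rRNA 4165 ± 128 against 4775 ± 112 (115%), and summed tRNA 33.9 ± 9.51 against 47.9 ± 5.50 (142%). Without Mettl3 control replicate 2, in which most tRNAs were higher than in replicate 1, 16 members were called.

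Complex I mRNAs were among these rises. mt-Nd4 was at 151 and 159 CPM in the Mettl3 control and 219 and 234 in the Mettl3 cKO (log2 0.55 ± 0.03, adjusted p = 2.1e-30). mt-Nd1 was at 895 and 941 against 1249 and 1328 (0.49 ± 0.02), mt-Nd2 at 201 and 212 against 276 and 291 (0.46 ± 0.03), and mt-Nd5 at 475 and 489 against 599 and 610 (0.33 ± 0.02). mt-Cytb was at 573 and 608 CPM against 785 and 845 (0.47 ± 0.03). These 5 kept their call in every alternative, and in each the knockout libraries lay above both control libraries. The groups did not overlap in 16 of the 30 members tested, beside 56.8% of all genes.

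mt-Co1 rose with them here, from 2761 and 2943 CPM to 3610 and 3965 (log2 0.41 ± 0.06, adjusted p = 0.00859), but did not pass when only the 4 Mettl3 libraries were fitted (adjusted p = 0.0556). mt-Rnr1 and mt-Rnr2 rose by 0.24 ± 0.03 and 0.19 ± 0.02 on the log2 scale. mt-Rnr1 did not pass with library totals (adjusted p = 0.0646), nor mt-Rnr2 with limma-voom (0.0829). mt-Nd6 was at 139 and 135 CPM against 161 and 141 and did not pass (adjusted p = 0.109), but it passed as higher in 8 of the 17 alternatives. Nor did mt-Co2, at 1.23 and 1.87 CPM against 2.44 and 1.44, mt-Atp6, at 1.67 and 3.09 against 3.08 and 3.52, or mt-Co3, at 1.23 and 1.32 against 1.06 and 1.92.

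Only mt-Ty and mt-Ts1 were called among the 18 tRNAs tested in the Mettl3 contrast. mt-Ty was at 7.87 and 10.5 CPM in the control and 12.1 and 13.2 in the knockout (log2 0.47 ± 0.13, adjusted p = 0.00582), and lost its call without Mettl3 control replicate 1 (0.159), with DESeq2 (0.132) and with upper-quartile scaling (0.0525). mt-Ts1 had 0 counts in both control libraries and 3 and 4 in the knockout, too few for a fold, and its call (adjusted p = 0.0334) was lost without Mettl3 control replicate 1 (0.130), Mettl3 control replicate 2 (0.121), Mettl3 cKO replicate 2 (0.101) or Mettl14 cKO replicate 1 (0.0536). mt-Tv was at 2.70 and 7.19 CPM against 9.35 and 12.2, and did not pass (log2 1.13 ± 0.49, adjusted p = 0.214). mt-Tm was at 1.38 and 2.38 CPM against 2.28 and 3.47, and did not pass either (adjusted p = 0.0589), though it did in 8 of the 17 alternatives.

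Whether the knockouts differed was tested as the Mettl14 change minus the Mettl3 change, each against its own control. Of the 30 members tested, 8 had a lower and 4 a higher change in Mettl14, beside 33.2% of all genes called (20.5% lower, 12.7% higher). The 8 lower were both rRNAs and 6 mRNAs: mt-Rnr1 (log2 difference -2.73 ± 0.04), mt-Cytb (-1.93 ± 0.04), mt-Nd1 (-1.62 ± 0.03), mt-Nd2 (-1.55 ± 0.04), mt-Nd4 (-1.52 ± 0.05), mt-Rnr2 (-1.50 ± 0.03), mt-Nd5 (-1.45 ± 0.03) and mt-Co2 (-0.87 ± 0.34). The first 7 were called in every alternative, and mt-Co2 in 8 of 16. The 4 higher were mt-Tm (1.07 ± 0.30), mt-Ty (0.77 ± 0.23), mt-Tp (0.44 ± 0.14) and mt-Nd6 (0.21 ± 0.07). Each of these 4 lost its call in at least 1 alternative. mt-Co1 did not pass (-0.28 ± 0.08, adjusted p = 0.0541), but it did in 11 of the 16 alternatives, as a lower change in each.

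The 2 control groups differed in their summed mitochondrial level by more than either knockout did from its own control. All members together were at 35833 ± 38.4 CPM in the Mettl14 control and 9545 ± 345 in the Mettl3 control, 3.75-fold higher in the former. Of the 30 tested, 23 were higher and 2 lower in the Mettl14 control, beside 67.8% of all genes called (33.6% higher, 34.1% lower). The control groups did not overlap in 29 of the 30, beside 83.4% of all genes. mt-Rnr1 was 14.1-fold higher (log2 3.81 ± 0.03), mt-Rnr2 4.41-fold (2.14 ± 0.02), mt-Nd5 3.36-fold (1.75 ± 0.02) and mt-Tp 4.21-fold (2.08 ± 0.10). The 2 lower ones were mt-Ty (log2 -1.46 ± 0.18) and mt-Atp6 (-0.94 ± 0.31, adjusted p = 0.00608, not called in 3 of the 17 alternatives). mt-Co1 did not pass (0.04 ± 0.06, adjusted p = 0.580). It passed in 9 of the 17 alternatives, as higher in 7 and as lower in 2, with upper-quartile scaling (-0.18) and with library totals (-0.41), so its direction depends on the setting. Line, fraction preparation and library batch cannot be told apart in this comparison. The Mettl14 contrast and this one share the Mettl14 control libraries.

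Nuclear genes that serve the mitochondrial genome were followed as lists, and their counts of calls stand beside the 40.4% of all genes called in the Mettl14 contrast and the 20.9% in the Mettl3 contrast. In the Mettl14 contrast the share called was 48.5% for RNA processing and decay and 47.4% for the aminoacyl-tRNA synthetases, both near that of all genes, and 54.5% for mitochondrial ribosomal proteins, 63.9% for oxidative phosphorylation subunits and 70.6% for transcription and replication. In the Mettl3 contrast these 5 lists were at 15.2% to 26.4%, around the share of all genes. Of 17 genes of mitochondrial transcription and replication tested, 10 fell and 2 rose in the Mettl14 cKO (median log2 -0.30), or 5 and 4 with library totals. Tfam, which packs mitochondrial DNA and opens its promoters, went from 73.2 ± 0.954 to 50.5 ± 0.443 CPM (log2 -0.53 ± 0.06), and Ssbp1, the single-strand binding protein of its replication, fell by 0.49. Polrmt, the mitochondrial RNA polymerase, rose from 46.3 ± 3.40 to 64.8 ± 2.78 CPM (0.48 ± 0.06). In the Mettl3 cKO 2 rose and 2 fell (median -0.04): Mterf4 rose by 0.34, and Tfb1m (-0.56) and Primpol (-0.31) fell.

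Genes of mitochondrial RNA processing and decay gave 11 lower and 5 higher of 33 tested in the Mettl14 cKO (median log2 -0.07), which with library totals became 6 lower and 15 higher. Trmt10c, a subunit of the enzyme that cuts the 5′ ends of mitochondrial tRNAs, fell from 84.5 ± 0.640 to 53.5 ± 0.112 CPM (-0.66 ± 0.06). Grsf1, an RNA granule protein that binds mitochondrial transcripts, fell by 0.39, and Pnpt1, the exonuclease of the mitochondrial degradosome, fell by 0.35. In the Mettl3 cKO 2 of the 33 rose and 3 fell, Pde12 rising by 0.33 and Pnpt1 falling by 0.13. Of 19 mitochondrial aminoacyl-tRNA synthetases, which load tRNAs, 4 rose and 5 fell in the Mettl14 cKO (12 and 4 with library totals), and 3 rose and 2 fell in the Mettl3 cKO. Lars2, for leucine, was at 702 ± 13.3 CPM in the Mettl14 control and 34.2 ± 2.28 in the Mettl14 cKO, with 23.0 ± 1.03 and 26.0 ± 0.553 in the Mettl3 groups. It fell by 4.36 on the log2 scale. Lars2 is known to hold sequence related to rRNA, so its level is uncertain.

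Mitochondrial ribosomal proteins assemble with the rRNAs, and nuclear-encoded respiratory subunits with the products of the mRNAs. Of 77 mitochondrial ribosomal protein genes tested, 36 fell and 6 rose in the Mettl14 cKO (median log2 -0.21), among them Mrpl15 (-0.74 ± 0.04) and Mrpl18 (-0.72 ± 0.05). Of 72 nuclear-encoded subunits of oxidative phosphorylation, 36 fell and 10 rose (median -0.13), among them Atp5j of ATP synthase (-0.89 ± 0.04) and Cox6c (-0.68 ± 0.03) and Cox7b (-0.57 ± 0.04) of cytochrome c oxidase. With library totals these counts became 18 lower and 16 higher for the ribosomal proteins, and 20 lower and 32 higher for the subunits. In the Mettl3 cKO 13 of the 77 rose and 1 fell, led by Mrpl43 (0.67 ± 0.09). With upper-quartile scaling that became 4 and 5. Of the 72 subunits 7 rose and 12 fell, among the latter Uqcrb (-0.26 ± 0.05), and with upper-quartile scaling 0 rose and 31 fell.

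As a clue to the makeup of the nuclear fraction, the mitochondrial classes were set beside cytoplasmic and nuclear RNAs. In the Mettl14 cKO, 67 of 84 cytosolic ribosomal protein genes tested fell and 2 rose (median log2 -0.35), and of 16 abundant cytoplasmic mRNAs 13 fell and 2 rose (-0.23). Rpl26 was at 1351 ± 20.8 CPM in the control and 675 ± 9.84 in the knockout, and Hspa8, a cytosolic chaperone, at 4608 ± 8.60 and 3446 ± 9.73. Of 19 RNAs listed as nuclear-retained, 8 rose and 6 fell (0.31). The share called was 82.1%, 93.8% and 73.7% in the same order, beside 40.4% of all genes. Neat1, the scaffold of paraspeckles, rose from 1014 ± 12.4 to 2123 ± 27.2 CPM, and Malat1, an RNA of nuclear speckles, from 21587 ± 105 to 29501 ± 376. Gm26917, the most abundant of this list in the Mettl14 control, went the other way, from 27003 ± 199 to 21308 ± 165 CPM. It was at 78.9% of the control in the Mettl14 cKO and 133% in the Mettl3 cKO. The nuclear-encoded rRNA class was at 20.6% and 146%, so both moved in the same direction in each knockout. Whether this row holds reads of rRNA was not tested, so its place in the list is uncertain. With library totals the cytoplasmic mRNAs came to 7 lower and 5 higher, and the ribosomal proteins to 48 and 14.

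Set to 100% in the Mettl14 control, the summed levels in the Mettl14 cKO were 75.8% for cytoplasmic mRNAs, 71.4% for cytosolic ribosomal proteins and 109% for nuclear-retained RNAs. They were 64.7% for mitochondrial mRNAs, 31.2% for mitochondrial rRNAs and 210% for mitochondrial tRNAs. The Mettl3 control was at 53.7%, 37.7% and 105% for the first 3 and at 52.0%, 16.4% and 33.0% for the mitochondrial classes. In the Mettl3 cKO the values were 50.4%, 39.0% and 131%, then 69.8%, 18.8% and 46.6%. Cytoplasmic and mitochondrial mRNA were thus both highest in the Mettl14 control, while from the Mettl3 control to the Mettl3 cKO the mitochondrial mRNA sum was higher and the cytoplasmic sum lower. In the Mettl3 cKO 4 of the 16 cytoplasmic mRNAs rose and 4 fell. Of the ribosomal proteins 18 rose and 7 fell, or 8 and 28 with library totals. Of the nuclear-retained RNAs 8 rose and 3 fell, or 6 and 6 with library totals. With TMM, 8 of the 16 cytoplasmic mRNAs were thus called in the Mettl3 contrast. The share called was 29.8% for the ribosomal proteins and 57.9% for the nuclear-retained RNAs. These stand beside 20.9% of all genes called, 15.1% higher and 5.78% lower. The nuclear-retained sum was mostly Malat1 and Gm26917. In the Mettl14 cKO these were at 137% and 78.9% of the Mettl14 control, so the sum describes neither. In the Mettl3 cKO they were at 120% and 133% of the Mettl3 control.

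The fibroblast markers moved with the contrasts too, 7 of 7 tested being higher in the Mettl14 cKO (median log2 1.11) and 3 higher and 1 lower in the Mettl3 cKO. Of the 8 stem cell markers 7 were lower and 1 higher in the Mettl14 cKO, and 4 lower and 1 higher in the Mettl3 cKO. Of all genes, 18.0% were called higher and 22.4% lower in the Mettl14 cKO, and 15.1% and 5.78% in the Mettl3 cKO. The part that purity of the fraction, cell makeup and rRNA depletion have in the mitochondrial levels was not tested. More organelle RNA in the fraction and more mitochondrial RNA per cell cannot be told apart here.

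**Figure D5:**
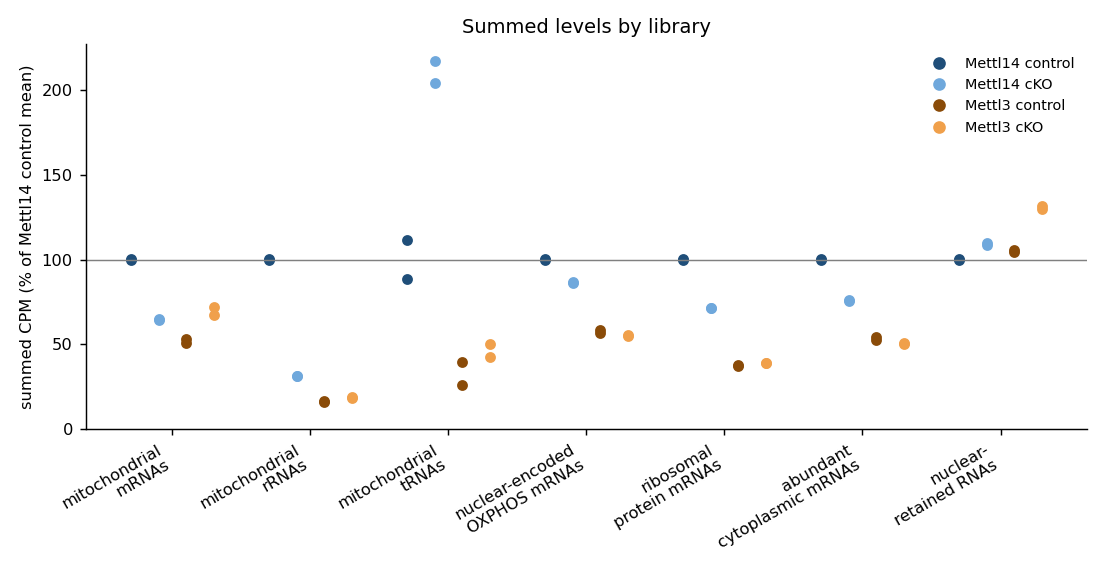
Summed level of mitochondrial mRNAs, rRNAs and tRNAs and of nuclear-gene lists in each library, as % of the mean of the Mettl14 control. In the Mettl14 cKO mitochondrial tRNAs are at 210% on average and mitochondrial rRNAs at 31.2%, with cytoplasmic mRNAs (75.8%) and nuclear-retained RNAs (109%) between them.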

How the data were processed

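The authors deposited raw read counts per gene, 1 table per library. The submitters' processing notes name mm10 as the genome and list HTSeq, HISAT2 2.1.0, Trimmomatic 0.38 and CASAVA. Neither the annotation release nor the strand setting nor the treatment of multi-mapping reads is given in the sources used here. Gene identifiers were matched without version to GENCODE M21 (54409 matched, 37 did not, and 0 lines named no gene). The members, gene lists and tests were chosen with earlier results of these data known.

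Counts were fitted over all 8 libraries with edgeR 4.0.16 in R 4.3.3 (TMM, filterByExpr with a minimum count of 10, robust quasi-likelihood, 4 group means, 4 residual degrees of freedom), and p-values were adjusted over all 21782 genes by Benjamini-Hochberg at 0.05. SE is the absolute log2 fold change over the root of F. CPM uses TMM-scaled totals (factors 0.8343 to 1.151). The fit was run on simulated data with far fewer changed genes than here and a fixed spread, which checks the code and not its fit to these data. Libraries of a group differed by more than sampling noise (chi-square per degree of freedom 1.43 to 2.08). Nuclear copies are gene transcripts aligned to the mitochondrial transcripts.

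Every mRNA and rRNA and each tRNA called in either knockout was named. From each other list, up to 3 called genes with the smallest p in each knockout could be named, and some of these are printed. Alternatives were RLE, upper-quartile and no scaling, scaling without mitochondrial rows, no low-count filter, DESeq2 1.42.0, limma-voom (limma 3.58.1), the 4 libraries compared alone, a replicate block, and leaving out each library.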

Additional observations from a re-analysis of the deposited data

Results flagged for a closer look

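In 12 of the 30 mitochondrial genes tested, the change in the Mettl14 cKO and the change in the Mettl3 cKO, each against its own control, differed by a test of the difference itself (edgeR, adjusted p under 0.05), beside 33.2% of all genes called, so the count itself is close to that of all genes. The difference in log2 fold change, Mettl14 minus Mettl3, was negative for both rRNAs and 6 mRNAs: -2.73 for mt-Rnr1, -1.93 for mt-Cytb, -1.62 for mt-Nd1, -1.55 for mt-Nd2, -1.52 for mt-Nd4, -1.50 for mt-Rnr2, -1.45 for mt-Nd5 and -0.87 for mt-Co2. It was positive for mt-Tm (1.07), mt-Ty (0.77), mt-Tp (0.44) and mt-Nd6 (0.21). For mt-Rnr1, mt-Rnr2, mt-Nd1, mt-Nd2, mt-Nd4, mt-Nd5 and mt-Cytb, the level fell in the Mettl14 cKO and rose in the Mettl3 cKO. The starting levels of these 7 also differed, all being higher in the Mettl14 control than in the Mettl3 control.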

How the results depend on the processing

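All 22 members called in the Mettl14 contrast and all 10 in the Mettl3 contrast kept their direction in each alternative that gave them a value with an adjusted p (17 for most, 16 for mt-Ts1, mt-Tk and mt-Tt in the Mettl14 contrast, 15 for mt-Ts1 in the Mettl3 contrast). Leaving out 1 library gave 19 to 24 members called for Mettl14, 9 to 16 for Mettl3 (16 without Mettl3 control replicate 2), 10 to 13 for the difference and 25 to 27 for the controls. The other settings gave 16 to 24, 8 to 12, 9 to 13 and 19 to 29. With the replicate block the counts were 23, 12, 13 and 25. Libraries with the same replicate number showed little shared deviation (correlations -0.0324 to 0.109). Sampling noise is part of each such difference, so a weak pairing could be missed.

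Summed levels moved with scaling. In the Mettl14 contrast the mRNA log2 ratio of -0.63 became -0.66 with RLE, -0.58 with upper-quartile scaling and -0.42 with library totals, and the rRNA ratio of -1.68 became -1.71, -1.64 and -1.48. The tRNA ratio of 1.07 became 1.28 with library totals. In the Mettl3 contrast upper-quartile scaling and library totals gave 0.31 and 0.34 for mRNA (0.42 with TMM) and 0.08 and 0.11 for rRNA (0.20). Leaving out 1 library gave -0.64 to -0.62 for mRNA, -1.69 to -1.67 for rRNA and 0.92 to 1.25 for tRNA in the Mettl14 contrast, and 0.37 to 0.47, 0.17 to 0.23 and 0.24 to 0.82 in the Mettl3 contrast. Library totals moved the median of all genes from 0.03 to 0.24 in the Mettl14 contrast, and from -0.09 to -0.54 between the controls.

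Among the mRNAs and rRNAs in the knockout contrasts, and mt-Co1 in the others, values that turned sign under some setting were those of mt-Atp6 (0.04 with library totals) and mt-Co3 (-0.28 to 0.57 without 1 library, lowest without Mettl14 control replicate 1) in the Mettl14 contrast, mt-Co2 (-0.06 to 0.70, lowest without Mettl3 cKO replicate 1) and mt-Co3 (-0.21 to 0.63, lowest without Mettl3 cKO replicate 2) in the Mettl3 contrast, and mt-Co1 in the difference (0.01 with library totals) and between the controls (-0.18 with upper-quartile scaling, -0.41 with library totals). Many tRNAs that were not called turned sign too, such as mt-Tl2 in the Mettl14 contrast (kept in 13 of 16) and mt-Tw in the Mettl3 contrast (13 of 17). The cause was not tested. Counts of at most 12 per library left 7 members untested.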
